A study of Oryctolagus cuniculus with 16 samples.

Results

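TNC, THBS1, SPP1 and TNFAIP6 encode secreted proteins of the extracellular matrix that act on cells rather than build its scaffold. They were followed as 4 of the 13788 named genes of a rabbit count table, 11925 of which had at least 1 count. The genes were picked by symbol with the ligation results of these same libraries known, so their differences between ligated and sham rabbits are given as descriptions, without a test. The tests given for these genes compare the intima with the media in sham rabbits, and the basilar terminus (BT) with the basilar artery (BA) within rabbits. The layers of ligated rabbits hold values on which the genes were chosen, so their differences too are descriptions. The sham libraries are the other side of that contrast, and the layer fit and the location tests include the ligated libraries. The q-values of these genes for layer and location are thus not independent of that choice.

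Female New Zealand white rabbits underwent bilateral ligation of the common carotid arteries, which sends more blood through the BA, or sham surgery that left flow normal, and arteries were collected 24 h later. The sham rabbits were numbered 3 and 4 and the ligated ones 5 and 6, and their age was not given in the sources used here. From each rabbit the intima, the layer that holds the endothelial cells (ECs), and the media, the layer of vascular smooth muscle cells (VSMCs), were cut by laser microdissection from the BA and from the apex of the BT, with sections pooled within each sample. This gave 16 libraries in 8 groups of 2 libraries, made from amplified RNA of very small samples.

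Matricellular proteins are released into the matrix mainly when a tissue remodels, and they change how cells adhere, move and respond to growth factors. Tenascin-C (TNC) loosens adhesion to fibronectin, thrombospondin-1 (THBS1) binds CD36 and CD47 and can release active TGF-beta from its latent complex, and osteopontin (SPP1) is a phosphorylated ligand of alpha-v integrins and CD44 that macrophages and stressed VSMCs make. TNFAIP6 encodes TSG-6, a hyaluronan-binding protein that moves heavy chains of inter-alpha-trypsin inhibitor onto hyaluronan and is induced by inflammatory cytokines. In arteries these proteins are best known from injured, remodeling or diseased walls.

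The intimal libraries held 5211886 to 17686105 counts on named genes and the medial libraries 2154863 to 11219236. The 2 libraries of each group differed well beyond sampling noise, with chi-square values per degree of freedom of 22.5 to 456, and none was identical to another. Levels are CPM, a gene's share of all counts of its library on a fixed scale, adjusted by the trimmed mean of M values (TMM) over all 16 libraries. They were not compared between genes, since they are not divided by transcript length. The summed level of 10 endothelial markers was 1215 to 5807 CPM in the intima and 443 to 1571 CPM in the media, and that of 8 smooth muscle markers was 12883 to 86665 CPM in the intima and 87794 to 144553 CPM in the media, so both layers carried RNA of both cell types. The intimal libraries of sham rabbit 3 stood apart, with the lowest endothelial sums of the 8 intimal libraries (1215 CPM in the BT and 1850 CPM in the BA) and the highest fibroblast sums (17565 and 10307 CPM). The BT intima of ligated rabbit 5 had the lowest smooth muscle sum of all libraries, 12883 CPM. In bulk samples such as these, fewer cells of a type and less RNA per cell cannot be told apart.

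**Figure D1:**
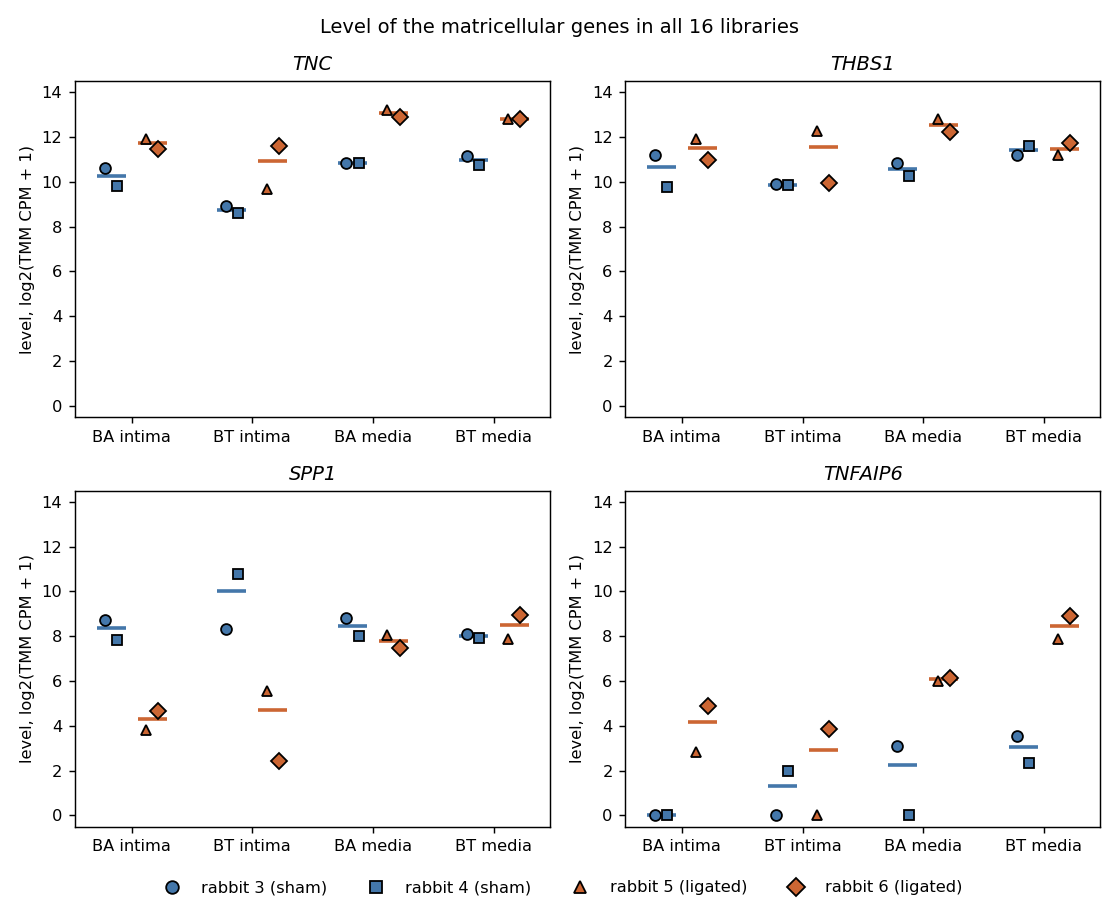
Level of each of the 4 genes in all 16 libraries, as log2(TMM CPM + 1) on the vertical axis, with the tissues on the horizontal axis. Blue symbols are sham and orange symbols ligated rabbits, the symbol shape gives the rabbit, and the short line marks the log2 of the group mean CPM + 1. TNC was higher in both ligated libraries of all 4 tissues, SPP1 was lower in both ligated libraries of the BA and BT intima but not in the media, and TNFAIP6 was highest in the ligated BT media.

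TNC, the adhesion-modulating glycoprotein, was higher after ligation in all 4 tissues. In the BA media it measured 1833 and 1810 CPM in sham rabbits 3 and 4 and 9334 and 7712 CPM in ligated rabbits 5 and 6. In the BT media the sham libraries held 2241 and 1741 CPM and the ligated libraries 7225 and 7235 CPM. Both ligated libraries thus exceeded both sham libraries at each location, and the group means differed 4.68-fold in the BA (8523 ± 1146 against 1821 ± 15.7 CPM, mean ± SD, n = 2 each) and 3.63-fold in the BT (7230 ± 6.73 against 1991 ± 354 CPM). In the BA intima the sham libraries held 1550 and 903 CPM and the ligated libraries 3911 and 2844 CPM. In the BT intima the sham libraries held 479 and 389 CPM and the ligated libraries 830 and 3090 CPM. The groups did not overlap in the intima either, with ratios of means of 2.75 in the BA and 4.52 in the BT. The ligated BT intima was uneven, and its lower TNC library was that with the lowest smooth muscle sum (12883 CPM, against 59464 CPM in rabbit 6). Whether the smooth muscle content had a part in this was not tested.

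The fitted differences in TNC, as log2 fold changes of ligated over sham ± standard error, were 2.24 ± 0.23 for the media of the BA and 1.87 ± 0.29 for that of the BT, and 1.46 ± 0.51 for the intima of the BA and 2.17 ± 0.66 for that of the BT. The last value came to 0.93 without rabbit 6 and to 2.81 without rabbit 5. Without sham rabbit 3, whose intima stood apart, the intimal values were 1.93 (BA) and 2.33 (BT). Ordered by group mean, the ligated BA media came first, then the ligated BT media and the ligated BA intima, and none of these overlapped with its neighbour. The sham BT media, the ligated BT intima and the sham BA media followed, and their libraries overlapped from one to the next. The sham BA intima and the sham BT intima were lowest and did not overlap with each other.

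THBS1, the integrin, CD36 and CD47 ligand, was higher after ligation in the BA media, whereas its BT media libraries overlapped between groups. In the BA media the sham libraries held 1835 and 1230 CPM and the ligated libraries 7235 and 4767 CPM, a ratio of means of 3.92 with no overlap. In the media of the BT the sham libraries held 2363 and 3080 CPM and the ligated libraries 2356 and 3370 CPM, a ratio of 1.05 with the ligated libraries on either side of the sham ones. The fitted log2 fold changes were 1.98 ± 0.31 (BA media) and 0.082 ± 0.31 (BT media), and the latter changed sign without rabbit 3 (-0.10) and without rabbit 6 (-0.20). The sham BT media already stood above the sham BA media.

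In the intima the THBS1 libraries varied more within groups. The BA intima held 2349 and 881 CPM in sham rabbits and 3860 and 1997 CPM in ligated rabbits, so that the ranges overlapped. The BT intima held 944 and 932 CPM in sham rabbits and 4972 and 975 CPM in ligated rabbits. All of the BT difference lay in rabbit 5, since the library of rabbit 6 was close to the sham level. The fitted log2 fold change of 1.68 ± 0.77 in the BT intima was 0.038 without rabbit 5 and 2.4 without rabbit 6. In the BA intima it was 0.85 ± 0.61, and it was 1.76 without rabbit 3, 0.30 without rabbit 4 and 0.29 without rabbit 5. In the ligated BT intima THBS1 and TNC ran in opposite order between the 2 rabbits, with THBS1 higher in rabbit 5 and TNC higher in rabbit 6. Ordered by mean, the ligated BA media came first, and from it down to the sham BT media each group overlapped with the next. The sham BT media did not overlap with the sham BA intima below it.

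SPP1, the osteopontin gene, was lower after ligation in the intima and overlapped between groups in the media. The BA intima held 419 and 228 CPM in sham rabbits and 13.1 and 24.5 CPM in ligated rabbits, and the sham mean was 17.2 times the ligated mean. The BT intima held 318 and 1726 CPM in sham rabbits and 45.5 and 4.45 CPM in ligated rabbits, a ratio of 40.9. The highest ligated intimal library was thus below the lowest sham one at both locations. These low libraries still rested on 54 to 527 counts. The BA media held 447 and 253 CPM in sham and 268 and 174 CPM in ligated rabbits, and the BT media 276 and 244 CPM in sham and 233 and 492 CPM in ligated rabbits. In the media the ligated and sham libraries overlapped at both locations.

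The fitted log2 fold changes of SPP1 were -4.12 ± 0.59 (BA) and -5.33 ± 1.36 (BT) for the intima, and -0.66 ± 0.40 (BA) and 0.49 ± 0.37 (BT) for the media. Without sham rabbit 3 the intimal values were -3.59 and -6.09. The BT intima value was -7.85 without rabbit 5 and -3.68 without sham rabbit 4, whose BT intima held the highest SPP1 level of the series, and the BT media value was -0.15 without rabbit 6. The ligation change in the intima less that in the media, over both locations, came to -4.57 ± 0.99 for SPP1, -0.32 ± 0.56 for TNC and 0.039 ± 0.64 for THBS1 on the log2 scale. The 4 ligated intimal libraries, from 4.45 to 45.5 CPM, held the lowest SPP1 levels of the series, and the 2 locations overlapped among them. The other 6 groups, from 221 to 1022 CPM, each overlapped with the next.

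TNFAIP6, the TSG-6 gene, was at 10.7 CPM or less in every sham library and was highest in the ligated BT media. There 37 and 25 counts in sham rabbits (10.7 and 4.03 CPM) stood against 745 and 4083 counts in ligated rabbits (232 and 477 CPM), a ratio of means of 48.0. In the BA media 79 and 0 counts (7.45 and 0 CPM) stood against 121 and 261 counts (63.8 and 68.4 CPM), a ratio of 17.8. Both medial comparisons were without overlap, and the fitted log2 fold changes were 5.64 ± 0.57 for the BT and 4.10 ± 1.32 for the BA. The BA value depended on the sham library at 0, and was 3.15 without rabbit 4, which carried it, and 11.04 without rabbit 3.

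In the intima the TNFAIP6 counts were few. The BA intima had 0 counts in both sham libraries and 58 and 164 counts (6.18 and 28.1 CPM) in the ligated ones, which made the ligated mean at least 87.1-fold higher than the mean level of 3 counts in each sham library. The BT intima had 0 and 20 counts in sham and 0 and 161 counts in ligated rabbits, so 1 library of each group was at 0 and the groups overlapped. There the fitted difference was 2.19 ± 2.87 on the log2 scale and turned to -6.99 without rabbit 6. A count of 0 allows a level of up to 3 counts, which was 0.169 and 0.224 CPM in the sham BA intima and 0.491 CPM in the sham BA media library at 0, for counting error only. In the order of group means, the ligated BT media and the ligated BA media came first without overlap, and from the ligated BA intima down each group overlapped with the next.

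Counted over the 4 genes, both ligated libraries lay above both sham libraries for 2 genes in the intima of the BA and 2 in that of the BT, and for 3 in the media of the BA and 2 in that of the BT. Of all genes tested, 15.4% of 8974, 20.4% of 9273, 21.0% of 8800 and 25.4% of 8783 did so in the same tissues. Both ligated libraries lay below both sham libraries for SPP1 in both intimal tissues, as for 20.0% and 25.6% of all genes tested there. Because the 4 genes were chosen on this contrast, nothing is read from these shares.

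The layers were compared within rabbit and location, with 4 pairs of intima and media from 2 rabbits in each flow group. The sham libraries were part of the contrast on which the genes were chosen, so their sham q-values are not independent of that choice. TNC was higher in the media than in the intima in 8 of 8 pairs, by 1.18 to 4.68 times in sham rabbits and by 2.34 to 8.70 times in ligated rabbits. The intima less the media was -1.41 ± 0.40 on the log2 scale in sham rabbits (q-value 0.120, the p-value of edgeR's quasi-likelihood test adjusted by Benjamini and Hochberg over all genes), which did not pass the threshold of 0.05 in edgeR but did in DESeq2 (q-value 0.00267). In ligated rabbits the difference was -1.74 ± 0.40, and it was -1.33 without rabbit 5 and -2.18 without rabbit 6. Genes lower in the intima in all 4 pairs made up 9.68% of the genes tested in sham rabbits and 14.4% in ligated rabbits. Smooth muscle marker sums were also higher in the media, and their part in the TNC difference was not tested.

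None of the 4 genes passed the layer test in sham rabbits in edgeR, where 1.40% of 9174 genes were called. SPP1 was higher in the media in 2 of 4 sham pairs, with an intima less media difference of 0.62 ± 0.66 on the log2 scale (edgeR q-value 0.771). In ligated rabbits, on whose low intimal level SPP1 was chosen, the media exceeded the intima 5.12 to 111 times in 4 of 4 pairs. The fitted intima less media difference there was -3.96 ± 0.75, and it was -4.77 without rabbit 5 and -3.33 without rabbit 6.

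For THBS1 the media was higher in 6 of 8 pairs. The intima less media difference of -0.80 ± 0.45 in sham rabbits did not pass (edgeR q-value 0.491), and that in ligated rabbits was -0.76 ± 0.46. The exceptions were the BA of sham rabbit 3, with a media over intima ratio of 0.781, and the BT of ligated rabbit 5, with 0.474. The ligated difference rested on rabbit 6, without which it was 0.10. TNFAIP6 was higher in the media in 7 of 8 pairs, and in the other pair, the BA of sham rabbit 4, both layers were at 0. Its difference of -4.49 ± 2.06 in sham rabbits did not pass either (edgeR q-value 0.384), and was -0.45 without rabbit 3 and -9.26 without rabbit 4. In ligated rabbits the difference was -4.49 ± 1.63, and it was -3.23 without rabbit 5 and -6.65 without rabbit 6.

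**Figure D2:**
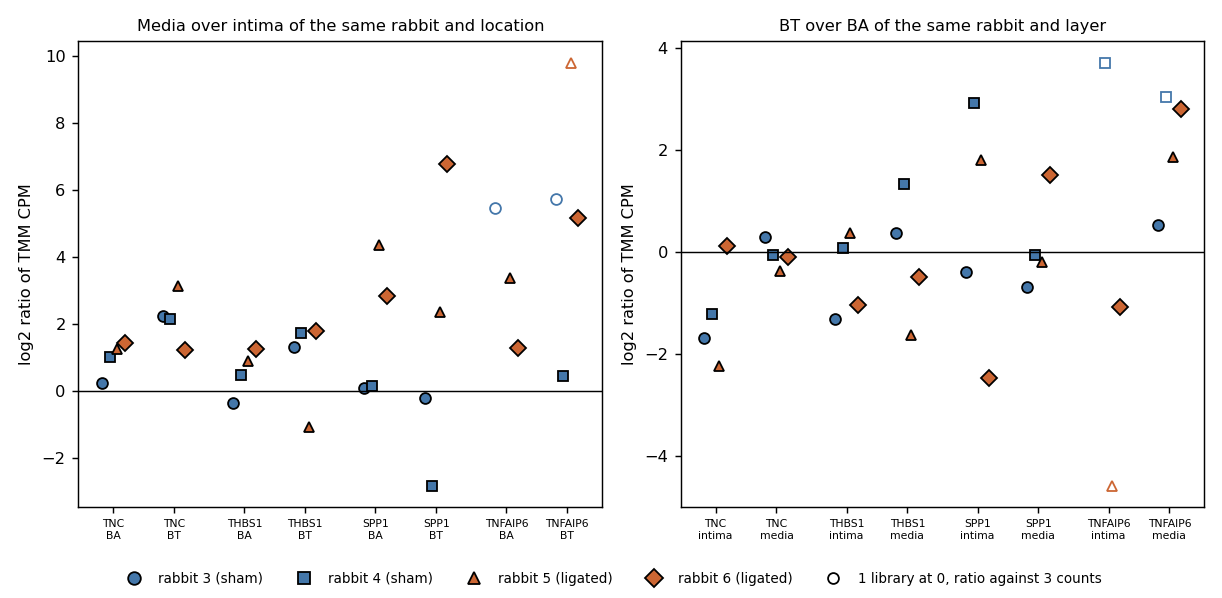
Ratios of TMM CPM within rabbits on a log2 scale, media over intima on the left and BT over BA on the right, with 1 symbol for each rabbit (blue sham, orange ligated) and 0 marking equal levels. Open symbols are ratios in which 1 library had 0 counts and was set to the level of 3 counts, and pairs with both libraries at 0 are left out. TNC lay above 0 in all 8 media over intima pairs, SPP1 in the 4 ligated pairs, and TNFAIP6 in the media lay above 0 in all 4 BT over BA pairs.

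Between the locations, the largest fitted difference of the 4 genes was that of TNFAIP6 in the media. TNFAIP6 was higher in the BT than in the BA media in 4 of 4 rabbits. The ratio was 1.44 in rabbit 3 and at least 8.22 in rabbit 4 (against the 3 counts that its BA library at 0 allows). It was 3.64 in rabbit 5 and 6.97 in rabbit 6. The sham ratios rested on few counts, 37 against 79 in rabbit 3 and 25 against 0 in rabbit 4. In rabbit 3 the 95% limits of counting error overlapped (7.57 to 14.8 CPM in the BT, 5.90 to 9.28 CPM in the BA). The fitted difference was 2.09 ± 0.47 on the log2 scale with rabbit as a block. It did not pass in edgeR (q-value 0.279), in a comparison that called 0.0227% of 8829 genes, but it passed in DESeq2 (q-value 0.00335) and without the filter on low levels (edgeR q-value 6.63e-07). The fit included the ligated media libraries, on whose levels TNFAIP6 was chosen, so these q-values are not independent of that choice. Genes higher in the BT in all 4 rabbits made up 7.31% of those tested in the media.

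TNC was lower in the BT than in the BA intima in 3 of 4 rabbits, with BT over BA ratios of 0.309, 0.431 and 0.212 in rabbits 3, 4 and 5 and 1.09 in rabbit 6. The fitted difference of -1.27 ± 0.38 on the log2 scale did not pass (edgeR q-value 1.00), in a comparison that called 0.0110% of 9131 genes. In the same comparison 8 of 8 smooth muscle markers had values below 0, with a median of -1.16 against 0.0016 for all genes tested. In the media the TNC difference was -0.064 ± 0.18 (edgeR q-value 0.998).

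For THBS1 the BT over BA ratio in the media was above 1 in both sham rabbits (1.29 and 2.50) and below 1 in both ligated rabbits (0.326 and 0.707), and in the intima it was above 1 in 2 of 4 rabbits. SPP1 in the media had ratios of 0.618 and 0.964 in sham and 0.870 and 2.83 in ligated rabbits, and in the intima it was higher in the BT in 2 of 4 rabbits. None of the THBS1 and SPP1 location differences passed (edgeR q-values 0.998 to 1.00). Each fit gave a single location difference over sham and ligated rabbits together, so it does not test the opposite THBS1 ratios of the flow groups.

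The members were set beside the summed levels of markers of the cell types that such strips could hold. Fibroblast markers of the leptomeninges and adventitia, with 10 of 12 in the table, summed to 13982 to 22243 CPM in the sham media and 5412 to 6686 CPM in the ligated media. In the intima the sums were 3520 to 17565 CPM in sham and 604 to 4379 CPM in ligated rabbits. The ligated media lay below the sham media at both locations. In the intima the ligated libraries lay below the sham ones at the BT (604 and 1183 against 17565 and 5468 CPM) and overlapped with them at the BA (4379 and 1208 against 10307 and 3520 CPM). The part of these cells in the differences of the 4 genes was not tested. Of 9 fibroblast markers tested in each medial comparison, 3 fell and 1 rose at the BA, where 0.807% of all genes were called, and 1 fell at the BT, where 2.35% were. Of 8 smooth muscle markers 0 passed at the BA and 2, MYH11 and LMOD1, fell at the BT. At the BA no gene was called once any 1 of the 4 rabbits was left out.

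Macrophages are a known source of SPP1, and 11 of the 14 macrophage markers searched were in the table. Their sum was 77.3 to 1116 CPM in the sham intima and 60.4 to 203 CPM in the ligated intima, and 84.0 to 343 CPM in the sham and 71.0 to 181 CPM in the ligated media. Of the markers tested, 7 of 8 in the BA intima and 8 of 9 in the BT intima had log2 fold changes of ligated against sham below 0, several of them fitted on libraries at 0, and none passed. In the sham BT intima the sum was 1116 CPM in rabbit 3 and 142 CPM in rabbit 4, beside 318 and 1726 CPM of SPP1, and in the ligated BT intima it was 121 CPM in rabbit 5 and 60.4 CPM in rabbit 6, beside 45.5 and 4.45 CPM. In the BA intima it was 522 and 77.3 CPM in sham rabbits 3 and 4, beside 419 and 228 CPM of SPP1, and 203 and 104 CPM in ligated rabbits 5 and 6, beside 13.1 and 24.5 CPM. CD14 was most or all of the sum in the BA intima of rabbit 4 (70.2 CPM) and rabbit 6 (101 CPM) and in the ligated BT intima (121 and 54.7 CPM), where 10 of the 11 markers in rabbit 5 and 5 in rabbit 6 were at 0. In the BA intima 1 and 5 markers were at 0 in the sham and 4 and 6 in the ligated libraries. The part of macrophages in the SPP1 difference was not tested.

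**Figure D3:**
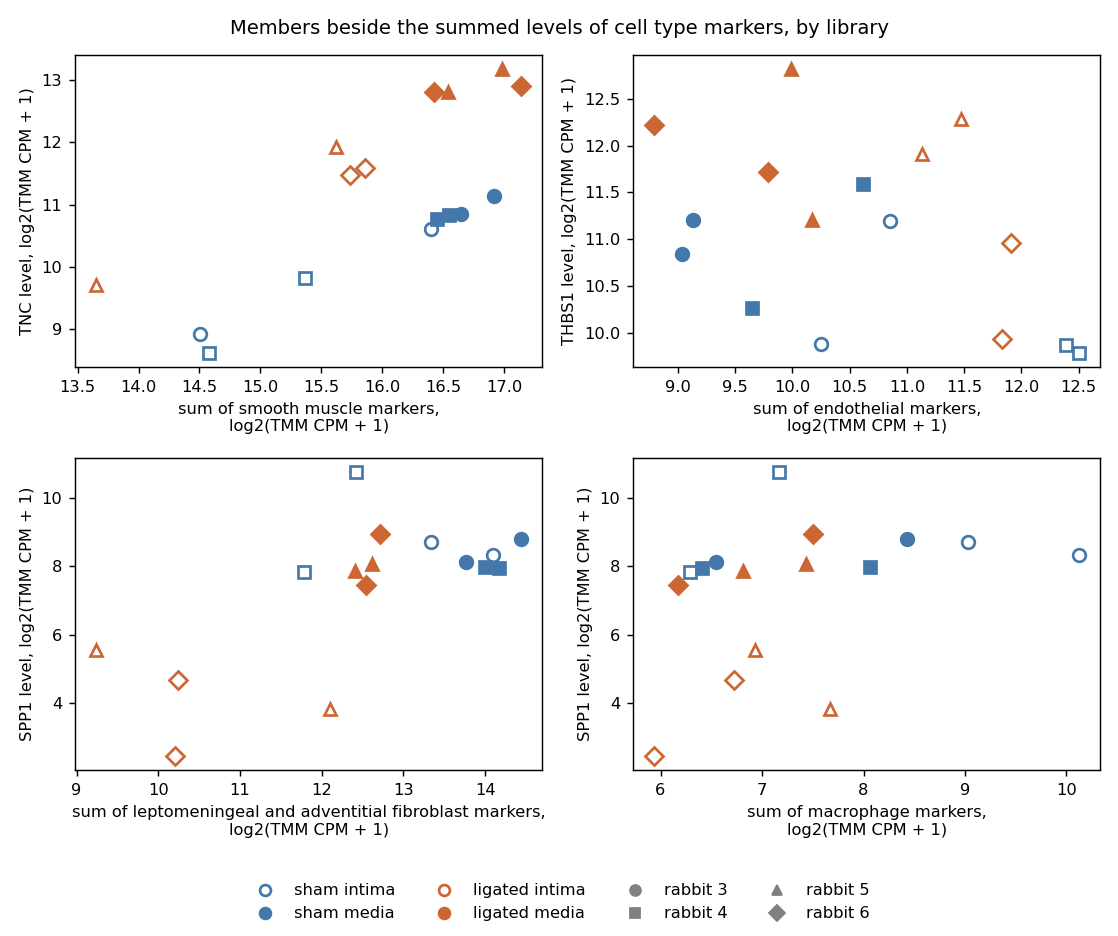
Level of TNC, THBS1 and SPP1 (vertical axes) against the summed level of cell type markers (horizontal axes) in the 16 libraries, all as log2(TMM CPM + 1). Filled symbols are media and open symbols intima, blue sham and orange ligated, with 1 shape for each rabbit. The ligated media lie above the sham media in TNC, with the 2 ligated BA media libraries also highest in smooth muscle sum (129554 and 144553 CPM), and the 4 ligated intimal libraries lie lowest in SPP1.

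The sum of 8 neutrophil and lymphocyte markers was 27.9 to 464 CPM in the sham and 726 to 2602 CPM in the ligated intima, and 0 to 21.6 CPM in the sham and 39.3 to 731 CPM in the ligated media, with S100A9 as its largest part in the ligated libraries and the neutrophil receptor CSF3R at 0 in all of them. S100A8, the usual partner of S100A9, overlapped in the BA intima (1.58 and 146 CPM in the sham, 28.5 and 0.513 CPM in the ligated). In the BT intima its ligated libraries (5.27 and 0.906 CPM) lay below the sham ones (11.9 and 17.3 CPM). In the media they lay above, with 29.0 and 41.7 against 0 and 9.52 CPM at the BT. At the BA they were at 26.9 and 7.34 against 0 and 6.05 CPM. Of 3 markers of this list tested in the BT media 1 passed, upward, where 1.16% of all genes were called as higher. None of 3 passed in each other tissue. The part of such cells in the TNFAIP6 difference was not tested. The 5 markers in the table of platelets, which store THBS1 protein, summed to at most 9.19 CPM in the intima and 0.848 CPM in the media. The 9 brain markers summed to at most 10.9 CPM in any library.

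Receptors of the 4 proteins were examined as a list of 21 symbols, 17 of them in the table. This list and those below were chosen with earlier results of these data known, so their q-values are not independent of that choice. In the media 2 integrin subunits rose with ligation at both locations. ITGB3, the beta-3 subunit that pairs with alpha-v to bind osteopontin, thrombospondin and tenascin, was at 126 and 103 CPM in the sham and 494 and 462 CPM in the ligated BA media, and rose by 2.08 ± 0.33 on the log2 scale (edgeR q-value 0.0366). At the BT it was at 128 and 187 CPM in the sham and 747 and 453 CPM in the ligated rabbits, and rose by 1.94 ± 0.36 (edgeR q-value 0.0171). ITGA5, the alpha subunit of the main fibronectin receptor, rose by 2.17 ± 0.38 in the BA media (edgeR q-value 0.0481) and by 2.07 ± 0.32 in the BT media (0.00676), from 141 to 271 CPM over the sham to 863 to 958 CPM over the ligated medial libraries. ITGA8, a smooth muscle integrin subunit that also binds osteopontin and tenascin, fell by 1.46 on the log2 scale in the BT media (SE 0.35, edgeR q-value 0.0493), from 286 and 427 CPM to 145 and 112 CPM.

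Of the receptors tested, 2 of 14 rose and none fell in the BA media, where 0.807% of 8800 genes were called, 0.432% as higher and 0.375% as lower. Of those tested at the BT, 2 of 13 rose and 1 fell, where 2.35% of 8783 genes were called, 1.16% as higher and 1.18% as lower. The list's median log2 fold change was 0.20 in the BA media, against -0.15 for all genes tested, and 0.62 in the BT media, against 0.028. In the BA media every call of this kind was lost when any 1 of the 4 rabbits was left out, since the count of called genes then came to 0. At the BT it ran from 38 without rabbit 6 and 109 without rabbit 5 to 609 without rabbit 4 and 645 without rabbit 3. In the intima 0 of 12 receptors at the BA and 0 of 13 at the BT passed, where edgeR called 0 of 8974 and 0 of 9273 genes (534 and 1079 at an unadjusted p under 0.05) and DESeq2 116 and 591.

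A pair of receptors did not pass but are named for their ligands, a choice made after their values were seen. CD44, which binds hyaluronan and osteopontin, was at 14.7 and 22.1 CPM in the sham and 71.7 and 172 CPM in the ligated BA media (edgeR q-value 0.0727). ITGAV, the alpha-v subunit, was at 63.2 and 20.8 CPM in the sham and 151 and 230 CPM in the ligated BA media (edgeR q-value 0.140). ITGB3 in the intima was at 30.8 to 89.9 CPM over the 4 sham and 401 to 654 CPM over the 4 ligated libraries, without passing (edgeR q-values 0.236 in the BA and 0.247 in the BT).

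Proteases and inhibitors that cut or protect these proteins formed a list of 20 symbols, 17 in the table. In the BT media 4 of 11 tested rose and none fell, where 1.16% of 8783 genes were called as higher. The list's median there was 1.91, against 0.028 for all genes. TIMP1, an inhibitor of metalloproteinases, rose by 3.77 ± 0.31 on the log2 scale (edgeR q-value 0.000173), from 1005 and 932 CPM to 14646 and 11617 CPM. ADAMTS4, a protease that cuts hyaluronan-binding proteoglycans, rose by 3.10 ± 0.54 (edgeR q-value 0.0130). The plasminogen activators PLAT and PLAU, which start the cascade that makes plasmin, rose by 3.03 ± 0.47 (edgeR q-value 0.00676) and 2.30 ± 0.41 (0.0137). In the BA media none of 11 passed, and the median was -0.27 against -0.15. In the intima none of 10 at the BA and none of 13 at the BT passed. The medians there were 1.15 and 1.31, against -0.10 and -0.13 for all genes.

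**Figure D4:**
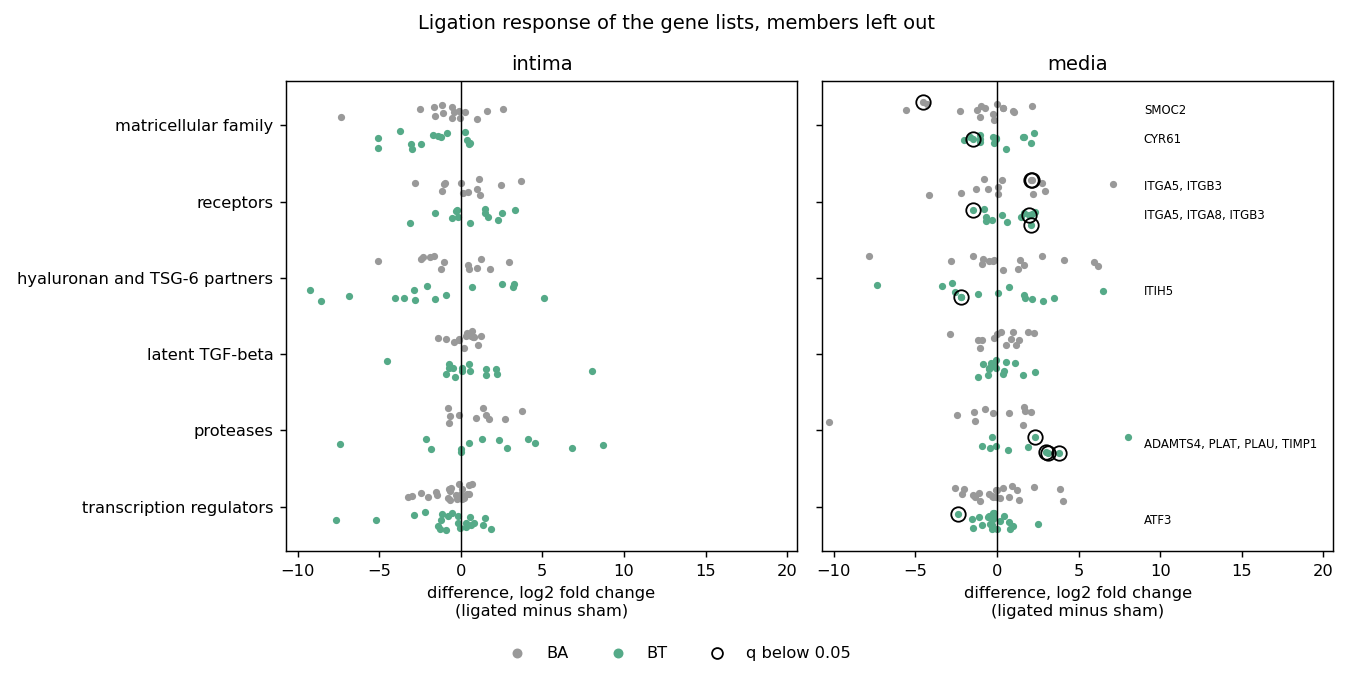
Fitted log2 fold change, ligated over sham, of tested genes in 6 gene lists (rows), with the intima on the left and the media on the right, BA in grey and BT in green. Circles and names mark genes with an edgeR q-value below 0.05, and the 4 genes themselves are left out. All named genes are in the media, among them ITGB3 and ITGA5 at both locations.

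Of 27 further symbols of the family, older and newer names included, 18 were in the table. In the media 1 of 16 at the BA and 1 of 15 at the BT passed, both downward. Of all genes tested, 0.375% and 1.18% were called as lower in these tissues. SMOC2, a secreted calcium-binding protein, fell from 66.6 and 140 CPM to 7.38 and 2.10 CPM in the BA media (-4.52 ± 0.76 on the log2 scale, edgeR q-value 0.0448), a call that was lost without any 1 rabbit. CYR61, an integrin ligand of the CCN family and a target of YAP, fell from 260 and 296 CPM to 103 and 96.2 CPM in the BT media (-1.47 ± 0.33, edgeR q-value 0.0422). The family median was -0.49 (BA) and -0.21 (BT), against -0.15 and 0.028 for all genes. In the intima none of 15 at the BA and none of 14 at the BT passed, with medians of -0.51 and -1.55 against -0.10 and -0.13.

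Hyaluronan and TSG-6 partners numbered 20 of 24 in the table. At the BT 1 of 15 passed in the media, where 1.18% of all genes tested were called as lower. This was ITIH5, a relative of the heavy chains that TSG-6 moves onto hyaluronan. It fell from 72.0 and 72.3 CPM to 15.3 and 16.0 CPM (-2.19 ± 0.51 on the log2 scale, edgeR q-value 0.0449). In the BA media its libraries overlapped, with 33.8 and 27.3 CPM in sham and 7.91 and 42.2 CPM in ligated rabbits. A link of ITIH5 to the TNFAIP6 difference was not tested. None of 16 passed in the BA media. HYAL2, a hyaluronidase, was higher in the intima than in the media by 2.83 ± 0.54 in sham rabbits (edgeR q-value 0.0358) and 3.19 ± 0.58 in ligated rabbits (0.0267), and was higher in the intima in each flow group's mean (45.2 against 7.11 CPM and 263 against 31.0 CPM). Between the layers of ligated rabbits 2.07% of 8756 genes were called. No gene was called between the layers of sham rabbits without rabbit 4, or between those of ligated rabbits without rabbit 6.

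Among 25 of 32 transcription regulators of remodeling in the table, 1 of 21 passed in the BT media and none of 22 in the BA media. In the BT media 1.18% of all genes tested were called as lower. The immediate-early factor ATF3 fell from a mean of 66.1 CPM to 12.6 CPM (-2.39 ± 0.54 on the log2 scale, edgeR q-value 0.0420). Of the latent TGF-beta list, none of 14 at the BA and none of 15 at the BT passed with ligation, in the intima or in the media. Its medians in the media were 0.39 (BA) and -0.059 (BT), against -0.15 and 0.028 for all genes. Between the layers FOS, also an immediate-early gene, was higher in the intima in sham (1.42 ± 0.29, edgeR q-value 0.0408) and ligated rabbits (1.59 ± 0.29, 0.0267). In ligated rabbits ITGA5 and TGFB2 were lower in the intima by differences of -1.20 ± 0.26 (edgeR q-value 0.0478) and -1.46 ± 0.31 (0.0434), and in sham rabbits ENG, the TGF-beta co-receptor endoglin of ECs, was higher there (3.07 ± 0.63, 0.0415). These layer calls were lost in the same way without rabbit 4 or rabbit 6.

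The genes whose levels ran most like each of the 4 over the 16 libraries were ranked by Pearson's r of log2(CPM + 1) among 8701 genes, as a description, since libraries of a rabbit are not independent and the layers share their large differences. HACD1, CALU and COL8A1 ran most like TNC, with r of 0.963, 0.951 and 0.938, and stayed at 0.911 or above within the 8 intimal and within the 8 medial libraries. COL8A1 encodes a short-chain collagen of vessel walls and CALU a calcium-binding protein of the secretory pathway. HSPH1, ATP11B and IPO5 ran most like THBS1, with r of 0.886, 0.878 and 0.875. ADAMTS4, the protease named above, ran most like TNFAIP6 (r of 0.925, and 0.941 in the 8 medial libraries), followed by MYBBP1A and RPL27 at 0.860 and 0.856. GABPB1, BMPR1B and ZC3H6 ran most like SPP1, with r of 0.887, 0.804 and 0.800, but within the media GABPB1 was at -0.21.

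Among the 4 genes themselves, TNC ran most like TNFAIP6 over the 16 libraries (Pearson's r of 0.83, Spearman's rho of 0.87). TNC and SPP1 ran opposite to each other in the 8 intimal libraries (r of -0.84, rho of -0.81) but not in the 8 medial ones (r of -0.15, rho of -0.024). TNC and THBS1 had an r of 0.73 in the media and 0.39 in the intima. These values pool sham and ligated libraries of genes chosen on that contrast. They are descriptions and cannot be told apart from the ligation differences given above.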

How the data were processed

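Counts of reads per gene in 16 libraries were used as the authors deposited them, as whole numbers without normalization. Per the labels, the reads came from amplified RNA (SMART-Seq v4), and the submitters' processing notes name STAR, Subread, featureCounts 1.6.2 and the build OryCun2.0. A row without a symbol, 13.8 to 18.7% of counts, was left out, and 22 symbols in the form of dates were kept as written. The table gives symbols only, and no coordinates or sequences were used. Groups and rabbit numbers came from the labels. Differences were fitted with edgeR 4.0.16 (quasi-likelihood F test, TMM scaling) in R 4.3.3 on genes whose mean passed 1 CPM in either group of a comparison, and called at a Benjamini-Hochberg q-value under 0.05. Ligation was fitted in each tissue. Layers were fitted over all 16 libraries with rabbit and location as a block, and locations within a layer with rabbit as a block, since samples with the same number came from the same rabbit. The study tested length-scaled values (RPKM), and no transcript lengths were used here. DESeq2 1.42.0 was an alternative, with other scalings, filters and fits. The layer test of the 4 genes in ligated rabbits, planned as a test, is given as a description, since they were chosen on those libraries. That in sham rabbits is kept as a test, with q-values that are not independent of the choice. Levels at 0 were set to 3 counts for ratios. With 2 rabbits in each flow group, p-values for ligation and location cover the spread between few animals. Those for layers cover the spread between pairs, since the BA and BT pairs of a rabbit entered as separate blocks. The libraries of a rabbit are not independent of each other. The fits were checked on simulated counts.

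The 4 genes, the gene lists and the tests were chosen with earlier results of these data known. Named beyond the 4 were the 3 genes most like each, and of each list those past the threshold in ligated against sham (at most 4 with the smallest q-values per list and comparison). List genes past the threshold between layers were added after their values were seen. 1 gene of the latent TGF-beta list is not reported or plotted here.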

Additional observations from a re-analysis of the deposited data

Results flagged for a closer look

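For THBS1 in the media, the BT over BA ratio was above 1 in both sham rabbits and below 1 in both ligated rabbits, so that the mean log2 ratio of ligated rabbits less that of sham rabbits was -1.90. For SPP1 at the BT, the media over intima ratio was below 1 in both sham rabbits (0.869 and 0.141) and above 1 in both ligated rabbits (5.12 and 111), a difference in mean log2 ratio of 6.09. Neither difference was tested, and both rest on 2 rabbits against 2.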

How the results depend on the processing

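TNFAIP6 had 0 counts in 4 of 8 intimal libraries, so its intimal ratios are bounds or rest on few counts, and 2 rabbits in a flow group limit every ligation value. All 90 values of the 4 genes for ligation under other scalings, filters, tools and fits kept their direction. The counts of called genes moved more, and the cause was not tested. With no filter on low levels edgeR called 123 (BA) and 346 (BT) genes in the intima, 507 (BA) and 557 (BT) in the media, 300 between the layers of ligated rabbits and 71 between the locations in the media. DESeq2 called 116, 591, 465 and 553 in the same 4 tissues, 742 and 1140 between the layers of sham and ligated rabbits, and 23 and 48 between the locations in intima and media. The newer form of edgeR's fit called 3 genes in the intima and 7 in the media of the BA, and a fit of the 8 libraries of the layer called 211 in the BA media. Scaling by library size alone called 1 gene between the locations in the media. It moved the median log2 fold change of all genes from -0.15 to -0.29 in the BA media, from 0.028 to 0.18 in the BT media, and from 0.13 to 0.33 and -0.017 to 0.22 between the layers of sham and ligated rabbits, and the calls then split into 33 higher and 53 lower (38 and 33 with TMM), 126 and 68 (102 and 104), 149 and 20 (102 and 26) and 185 and 44 (107 and 74).

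Without the replicate block edgeR called 74 genes between the layers of sham rabbits and 0 genes between the locations in intima and in media, and the TNFAIP6 value between locations in the intima, -0.91 with the block, was 1.57. Removing the block changed no other call of the 4 genes. No block was possible for ligation, since no rabbit had both flows. TNC between the layers of sham rabbits passed the threshold in DESeq2 (-1.44), and TNFAIP6 between the locations in the media with no filter (2.09) and in DESeq2 (2.19). In ligated rabbits, where it is a description, the TNC value was -1.75 with RLE size factors, -1.74 with no filter and -1.75 in DESeq2. Of the 3 genes most like each of the 4, 1 for TNC and 0 for THBS1, SPP1 and TNFAIP6 were among the first 3 in the 8 intimal libraries alone, and 0 for each of the 4 in the 8 medial ones. The difference of the ligation response between layers kept its direction under RLE and library size scaling, both added after the data were seen.

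Leaving out 1 rabbit at a time gave 0 to 126 (BA) and 0 to 116 (BT) called genes in the intima, 0 to 0 (BA) and 38 to 645 (BT) in the media, 0 to 113 and 0 to 255 between the layers of sham and ligated rabbits, and 0 to 1 and 0 to 4 between the locations in intima and media. For TNC the log2 fold change then ran from 1.10 to 1.93 (BA intima), 0.93 to 2.81 (BT intima), 2.10 to 2.35 (BA media), 1.70 to 2.06 (BT media), -1.58 to -1.23 (intima less media of sham rabbits), -2.18 to -1.33 (intima less media of ligated rabbits), -1.71 to -0.94 (BT less BA in the intima) and -0.18 to 0.042 (BT less BA in the media). For THBS1 the log2 fold change then ran from 0.29 to 1.76 (BA intima), 0.038 to 2.4 (BT intima), 1.65 to 2.31 (BA media), -0.20 to 0.31 (BT media), -1.10 to -0.48 (intima less media of sham rabbits), -1.52 to 0.10 (intima less media of ligated rabbits), -0.76 to -0.19 (BT less BA in the intima) and -0.59 to 0.39 (BT less BA in the media). For SPP1 the log2 fold change then ran from -4.62 to -3.59 (BA intima), -7.85 to -3.68 (BT intima), -1.02 to -0.17 (BA media), -0.15 to 0.92 (BT media), 0.05 to 1.34 (intima less media of sham rabbits), -4.77 to -3.33 (intima less media of ligated rabbits), -0.34 to 1.48 (BT less BA in the intima) and -0.32 to 0.40 (BT less BA in the media). For TNFAIP6 the log2 fold change then ran from -6.99 to 9.38 (BT intima), 3.15 to 11.04 (BA media), 5.01 to 6.46 (BT media), -9.26 to -0.45 (intima less media of sham rabbits), -6.65 to -3.23 (intima less media of ligated rabbits), -3.32 to 1.57 (BT less BA in the intima) and 1.79 to 2.64 (BT less BA in the media).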
